A study of Caenorhabditis elegans with 4 samples.

Results

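The genes described are 9 Caenorhabditis elegans genes for carnitine-dependent import and beta-oxidation of fatty acids in mitochondria. They are the carnitine palmitoyltransferase genes cpt-1 and cpt-2, the acyl-CoA dehydrogenase genes acdh-7, acdh-8, acdh-10, acdh-11, acdh-12 and acdh-13, and the thiolase gene acaa-2. They were chosen by name and found by WormBase gene identifier. All 9 were among the 20535 genes of the files, and all 9 passed the filter on low values. RNA of whole young adult animals was sequenced from 2 strains, with 2 libraries per strain. The control, VL749, carries the integrated array wwIs24, in which the acdh-1 promoter drives GFP and which the genotype lists with unc-119(ed3). The mutant, VL1080, carries the same array and mccc-1(ww4). Both strains were fed the bacterium Comamonas aquatica DA1877 on nematode growth medium at 20 °C and were harvested 70 h after hatching, with a minimum of 200 animals for each library. Larvae had been synchronized by an arrest of 20 h.

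Long fatty acids cross the inner mitochondrial membrane as carnitine esters. Carnitine palmitoyltransferase I makes the ester, a carrier moves it across, and carnitine palmitoyltransferase II restores the acyl-CoA. Each round of beta-oxidation then runs through an acyl-CoA dehydrogenase, an enoyl-CoA hydratase, a hydroxyacyl-CoA dehydrogenase and a thiolase, and the dehydrogenases differ in the chain length they accept. The protein made from mccc-1 belongs to methylcrotonyl-CoA carboxylase, an enzyme that breaks down leucine in the same organelle. Leucine breakdown uses its own acyl-CoA dehydrogenase, encoded by ivd-1.

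Levels are in FPKM, mapped fragments scaled by transcript length and library total, so that levels of different genes can be set side by side. Changes were tested on log2(FPKM + 1), mutant minus control, with limma over 13091 genes, and a gene was called at a Benjamini-Hochberg adjusted p under 0.05. The FPKM summed to 741399 to 786436 per library. One fragment on a transcript of 1 kb was worth 0.085 to 0.088 FPKM as estimated from the spacing of low values, so the values of the 9 genes rest on roughly 165 to 3240 fragments each. Markers of intestine, body muscle, neurons, sperm and germline were all present above the filter. Of 5 epidermal markers the adult collagen gene col-19 stood at 2789 to 3418 FPKM and dpy-7, rol-6 and bli-1 stood below 1 FPKM in every library. mccc-1 itself had 104.19 and 105.26 FPKM in the control and 100.43 and 100.33 FPKM in the mutant (limma adjusted p = 0.821), and the lesion of ww4 is not in the labels. The labels name the 2 libraries of each strain as biological replicates without describing how they were separated, and the p-values rest on the spread of these libraries alone.

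Of the 9 genes, acaa-2 rose, acdh-8 fell and 7 did not pass the test. Among all tested genes 8.36% were called, 1.06% higher and 7.3% lower. An unadjusted limma p under 0.05 was found in 2 of the 9 genes and in 2833 of all 13091 tested genes. The median log2 fold change of the 9 genes was 0.08, against 0.05 for all tested genes, and the median of its absolute size was 0.10 against 0.23. By control mean the 9 genes lay at percentiles 60.9 to 91.2 of all tested genes, and genes of like level were not compared. Control and mutant libraries were fully separated for 4 of the 9, acdh-8, acdh-11, acdh-13 and acaa-2, and for 52.1% of all tested genes. Both calls depended on the filter, which was at least 1 FPKM in 2 libraries. With no filter beyond a value above 0 the adjusted p was 0.106 for acdh-8 and 0.107 for acaa-2, and with a minimum of 0.1 FPKM it was 0.0695 and 0.0716.

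**Figure D1:**
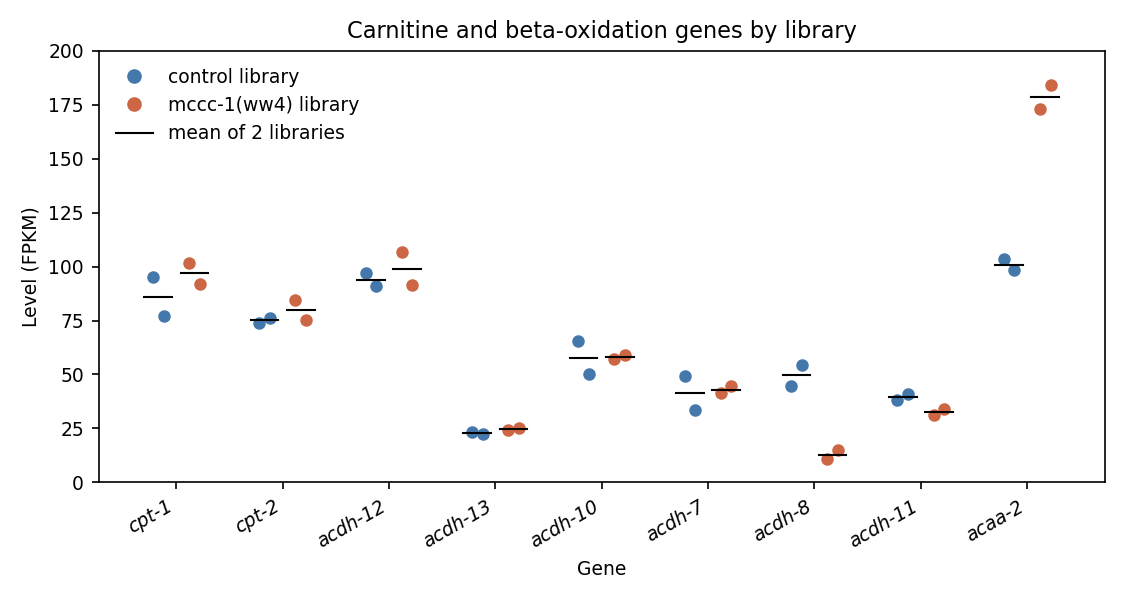
Level in FPKM on a linear axis for each of the 9 genes, with 1 point per library (blue control, orange mccc-1(ww4)) and a bar at the mean of 2 libraries. The mutant points of acaa-2 lie above the control points, at 172.97 and 183.92 FPKM, those of acdh-8 lie below them, at 10.73 and 14.86 FPKM, and those of the other genes lie near or among the control points.

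cpt-1 (WBGene00012907; chromosome II, 12788244 to 12796452, reverse strand, WBcel235 annotation) encodes carnitine palmitoyltransferase I, the entry step. It had 95.15 and 76.94 FPKM in the control libraries and 101.84 and 91.83 FPKM in the mutant libraries, so the strains overlapped. The log2 fold change was 0.17 (SE 0.15, 95% interval -0.18 to 0.53, limma adjusted p = 0.566). cpt-2 (WBGene00011122; chromosome IV, 11179645 to 11183008, forward strand) encodes the enzyme on the inner side of the membrane. The control libraries had 73.89 and 76.16 FPKM and the mutant libraries 84.55 and 75.13 FPKM. Here too the strains overlapped, with a log2 fold change of 0.09 (SE 0.13, interval -0.21 to 0.39, limma adjusted p = 0.763). The intervals leave room for a rise of up to 1.44-fold in cpt-1 and 1.31-fold in cpt-2. The ratio of cpt-1 to cpt-2 was 1.29 and 1.01 in control libraries, against 1.204 and 1.22 in mutant libraries.

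Of 6 other tested carnitine genes none was called by limma, and 2 had an unadjusted p under 0.05, against 2833 of all 13091 tested genes. dif-1, which encodes the carnitine-acylcarnitine carrier, had 79.63 and 76.92 FPKM in the control and 96.64 and 94.10 FPKM in the mutant (log2 fold change 0.28, SE 0.12, limma adjusted p = 0.224). gbh-2, named for gamma-butyrobetaine hydroxylase, the last enzyme of carnitine synthesis, had 27.76 and 40.54 FPKM in the control and 20.23 and 10.30 FPKM in the mutant (-1.16, SE 0.32, limma adjusted p = 0.0851). Its mutant libraries lay below its control libraries but differed from each other. Its log2 fold change ranged from -1.61 without mutant replicate 1 (limma adjusted p = 0.0314) to -0.70 without mutant replicate 2 (0.194). It was -1.42 without control replicate 1 (0.0271) and -0.89 without control replicate 2 (0.304). The homologs cpt-4, cpt-5 and cpt-6 had log2 fold changes of -0.05, 0.13 and 0.21, and cpt-3 was below 1 FPKM in all 4 libraries.

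acdh-12 (WBGene00017125; chromosome II, 7192429 to 7195641, reverse strand) is related to the human very-long-chain acyl-CoA dehydrogenase. It was the acyl-CoA dehydrogenase gene of the 9 with the highest mean level in both strains, at 96.79 and 91.20 FPKM in the control and 106.60 and 91.48 FPKM in the mutant. The strains overlapped (log2 fold change 0.07, SE 0.13, interval -0.24 to 0.38, limma adjusted p = 0.816). Its annotated end overlaps the gene E04F6.4 on the opposite strand by 80 bases. E04F6.4 was at 3.13 to 6.43 FPKM. acdh-13 (WBGene00001566; chromosome IV, 8496485 to 8498823, reverse strand), another acyl-CoA dehydrogenase gene, was the lowest of the 9 in the control. It had 23.18 and 22.60 FPKM there and 24.17 and 25.20 FPKM in the mutant. Both mutant libraries were above both control libraries, yet the log2 fold change was only 0.10 (SE 0.15, interval -0.24 to 0.45, limma adjusted p = 0.751). acdh-13 and cpt-2 lie on the chromosome of mccc-1, 1.39 and 1.29 Mb from it, and neither was called.

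acdh-7, acdh-8 and acdh-10 are related to the human medium-chain acyl-CoA dehydrogenase. acdh-7 (WBGene00020812; chromosome X, 17215018 to 17217105) and acdh-10 (WBGene00020366; chromosome X, 17213144 to 17214903) are neighbours on the reverse strand, 0.114 kb apart, whereas acdh-8 (WBGene00019406; 5794495 to 5796185, forward strand) is on chromosome II. acdh-10 had 65.28 and 50.31 FPKM in control libraries and 57.18 and 58.94 FPKM in mutant libraries. acdh-7 had 49.09 and 33.50 FPKM in control libraries and 41.28 and 44.73 FPKM in mutant libraries. For both genes the mutant libraries lay between the control libraries. The log2 fold changes were 0.02 for acdh-10 (SE 0.16, interval -0.36 to 0.39) and 0.08 for acdh-7 (SE 0.20, interval -0.39 to 0.55), with limma adjusted p of 0.964 and 0.867. The 2 neighbours moved alike between control libraries, and acdh-10 was 1.33, 1.502, 1.39 and 1.32 times acdh-7 in control replicates 1 and 2 and mutant replicates 1 and 2. The sign of their small differences turned without control replicate 2, to -0.17 for acdh-10 and -0.19 for acdh-7. That of acdh-10 also turned without mutant replicate 2 (-0.0034), with median-of-ratios scaling (-0.019) and with quantile normalization (-0.071).

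acdh-8 fell. It had 44.79 and 54.48 FPKM in the control libraries and 10.73 and 14.86 FPKM in the mutant libraries, with no overlap. The mean went from 49.6 ± 6.85 to 12.8 ± 2.92 FPKM (SD, n = 2 each), 3.88-fold lower. The log2 fold change was -1.89 (SE 0.20, interval -2.36 to -1.41, limma adjusted p = 0.00777), and it was -2.10 to -1.67 when any 1 library was left out. By mean level acdh-8 was in place 6 of the 9 genes in the control and in place 9 in the mutant. Its share of the summed FPKM of the 3 medium-chain type genes was 28.1% and 39.4% in control libraries, against 9.83% and 12.5% in mutant libraries. The ratio of acdh-8 to acdh-10 was 0.686 and 1.08 in control libraries, against 0.188 and 0.252 in mutant libraries. Reads shared between the 3 related genes could have been divided among them by the authors' quantification, and the identity of their sequences was not measured here.

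Sperm genes were lower in the same libraries. Of 8 sperm markers, 7 fell, against 7.3% of all tested genes, and spe-9 did not pass (limma adjusted p = 0.127). spe-9 had 1.22 and 1.89 FPKM in the control and 0.42 and 0.41 FPKM in the mutant. It met the filter only through the control libraries, and its log2 fold change of -0.84 is understated at so low a level. The median log2 fold change of the 8 markers was -1.59. Their summed level was 824 and 856 FPKM in the control and 208 and 320.4 FPKM in the mutant, 3.18-fold lower, and none was at 0. acdh-8 amounted to 5.44% and 6.37% of that sum in the control and to 5.16% and 4.64% in the mutant. Between the mutant libraries, replicate 2 had the higher level of acdh-8 and of 7 of the 8 sperm markers. This order was not particular to acdh-8, since replicate 1 was above replicate 2 in only 3 of the 9 genes. In whole animals, fewer cells of a type and less RNA per cell cannot be told apart, and the part of sperm in the result for acdh-8 was not tested. In the other marker lists no tested gene was called, and the summed levels had mutant to control ratios of 1.13 for intestine, 0.869 for body muscle, 0.975 for epidermis, 1.01 for neurons and 1.14 for oocyte and germline. asp-1 makes up most of the intestinal sum and col-19 most of the epidermal one. gld-1, with means of 455.2 FPKM in control and 455.5 FPKM in mutant libraries, is the largest part of the oocyte and germline sum. Of these 6 oocyte and germline genes, 4 had a positive log2 fold change and 2 a negative one. puf-5 had 189.81 and 155.50 FPKM in control libraries and 249.30 and 238.97 FPKM in mutant libraries (limma adjusted p = 0.0835). The intestinal gene elt-2 had 6.38 and 3.94 FPKM in control libraries and 9.55 and 11.13 FPKM in mutant libraries (limma adjusted p = 0.0967), and elt-3 of the epidermis had a log2 fold change of -0.43 (0.294).

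**Figure D2:**
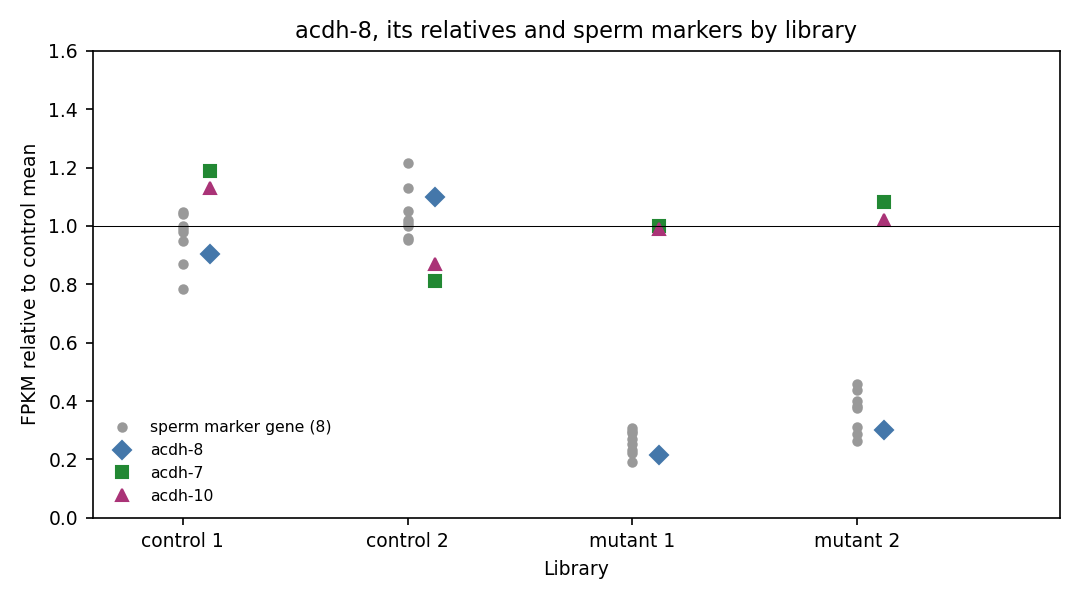
FPKM divided by the gene's control mean (linear axis) in each of the 4 libraries, for 8 sperm marker genes (grey points), acdh-8 (blue diamonds), acdh-7 (green squares) and acdh-10 (purple triangles). In mutant replicates 1 and 2 the sperm markers lie at 0.192 to 0.308 and 0.264 to 0.459 and acdh-8 at 0.216 and 0.299, while acdh-7 and acdh-10 lie at 0.989 to 1.08.

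The genes flanking acdh-8 differed from each other. msp-63, a gene named for a major sperm protein, lies 879 bases downstream on the opposite strand and fell, from 13.09 and 10.91 to 3.05 and 2.18 FPKM, with a log2 fold change of -1.85 (SE 0.24, limma adjusted p = 0.0117). lect-2 ends 92 bases upstream on the strand of acdh-8. It had 3.58 and 3.24 FPKM in the control and 3.27 and 2.67 FPKM in the mutant (-0.15, SE 0.24, limma adjusted p = 0.781). The fall of acdh-8 had a counterpart on its downstream side and none that passed the test on its upstream side. Lower calls were also made for 7.3% of all tested genes and for 7 of the 8 sperm markers. Whether position played a part in the falls of acdh-8 and msp-63 was not tested. Over all tested genes, the profiles across the 4 libraries nearest to that of acdh-8, by Euclidean distance of centred log2(FPKM + 1) values, were those of M28.9, catp-4 and C33H5.16, at distances of 0.07, 0.07 and 0.08. With 4 libraries in 2 groups many profiles look alike, and these distances describe the libraries only.

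acdh-11 (WBGene00012860; chromosome III, 10566258 to 10571603, forward strand) encodes an acyl-CoA dehydrogenase known in C. elegans for limiting expression of the stearoyl-CoA desaturase gene fat-7 during adaptation to heat. It had 37.95 and 41.12 FPKM in the control and 31.18 and 33.97 FPKM in the mutant. Both mutant libraries were below both control libraries, but the log2 fold change of -0.27 (SE 0.14, interval -0.60 to 0.06) did not pass (limma adjusted p = 0.324). fat-7, looked up for this link after its values were seen, had 23.63 and 76.49 FPKM in the control and 14.00 and 11.38 FPKM in the mutant. It did not pass either (-1.68, SE 0.48, limma adjusted p = 0.0911), but its control libraries differed by more than 3-fold. Its log2 fold change was -2.51 without control replicate 1 (limma adjusted p = 0.000709) and -0.85 without control replicate 2 (0.137).

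acaa-2 rose. The gene (WBGene00009952; chromosome III, 13344937 to 13346860, forward strand) encodes a thiolase related to the human mitochondrial enzyme that cleaves acetyl-CoA from the shortened chain at the end of each round. It had 103.53 and 98.30 FPKM in the control libraries and 172.97 and 183.92 FPKM in the mutant libraries, with no overlap. The mean went from 100.9 ± 3.70 to 178 ± 7.74 FPKM (SD, n = 2 each), 1.77-fold higher. The log2 fold change was 0.82 (SE 0.12, interval 0.54 to 1.097, limma adjusted p = 0.0131). It kept its size without control replicate 2 (0.78) but missed the threshold there (limma adjusted p = 0.0579). acaa-2 had the highest mean level of the 9 genes in both strains. In the control it was near acdh-12, with ratios of 1.07 and 1.08, and in the mutant the ratios were 1.62 and 2.01. Its flanking genes ife-1 and mtm-6, on the same strand, had log2 fold changes of 0.05 and 0.24 and were not called.

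The profile of acaa-2 over the 4 libraries was nearest to those of Y66A7A.7, ivd-1 and K12C11.3, at distances of 0.02, 0.04 and 0.06. Of these, ivd-1, which encodes the isovaleryl-CoA dehydrogenase of leucine breakdown, was called and had a log2 fold change of 0.82 (SE 0.12, limma adjusted p = 0.0128). Y66A7A.7 and K12C11.3 had values of 0.79 and 0.80 and were not called (limma adjusted p = 0.0539 and 0.0933). The 3 genes were picked for this nearness, so alike log2 fold changes followed from the choice. A link between acaa-2 and ivd-1 was not tested. The thiolase gene kat-1 rose as well, from 102.46 and 131.08 to 254.92 and 268.55 FPKM, a log2 fold change of 1.17 (SE 0.15, limma adjusted p = 0.0111). hadb-1, the gene of the beta subunit of the mitochondrial trifunctional protein, which carries thiolase activity for long chains, had 112.66 and 103.40 FPKM in the control and 99.30 and 98.47 FPKM in the mutant (-0.13, SE 0.12, limma adjusted p = 0.616). The 3 thiolase genes had control means between 100.9 and 117 FPKM, and in the mutant their means were 98.9, 178 and 262 FPKM.

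The acyl-CoA dehydrogenase genes held calls in opposite directions, but not within the 6 of the group described. Of these 6, acdh-8 fell and none rose. Their summed level was 317 and 293 FPKM in the control and 271 and 269 FPKM in the mutant, and the means without acdh-8 were 256 ± 23.7 FPKM for control and 257 ± 4.31 FPKM for mutant libraries (SD, n = 2 each). Of the 7 other tested acyl-CoA dehydrogenase genes, 4 were called higher and 2 lower, against 1.06% and 7.3% of all tested genes. This list was chosen with earlier results known. acdh-9 and ivd-1 rose, with log2 fold changes of 1.96 and 0.82, acdh-4 and acdh-5 fell, and acdh-3 did not pass. acdh-9 went from 61.25 and 59.69 to 216.95 and 259.63 FPKM, and its limma adjusted p was 0.00395 (SE 0.13). acdh-1 and acdh-2 were also called higher, at 2.98 and 7.27, but neither would have passed the filter without the mutant libraries. The filter thus favoured a difference in both, more so in acdh-1, which was below 1 FPKM in both control libraries. acdh-1 was at 0.07 and 0.36 FPKM in control libraries, and its log2 fold change was 4.95 with a pseudocount of 0.1. acdh-2 was at 0.41 and 2.50 FPKM there. acdh-4 fell from 11.98 and 13.06 to 4.67 and 4.54 FPKM (-1.27, SE 0.20, limma adjusted p = 0.0169). acdh-5 fell from 8.08 and 11.34 to 1.99 and 3.62 FPKM (-1.51, SE 0.30, limma adjusted p = 0.0319). Both calls depended on single libraries. acdh-4 missed the threshold without control replicate 2 (limma adjusted p = 0.0713) and without either mutant library (0.0726 and 0.0593 without replicates 1 and 2), and acdh-5 without control replicate 2 (0.12), without mutant replicate 1 (0.134) and when values were quantile normalized (0.0637). acdh-3 had a log2 fold change of 0.19, and acdh-6 was below 1 FPKM in all libraries. Since 2 libraries against 2 allow no exact permutation p below 0.333 for a single ratio, differences between single genes were not tested beyond each gene's own fit.

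**Figure D3:**
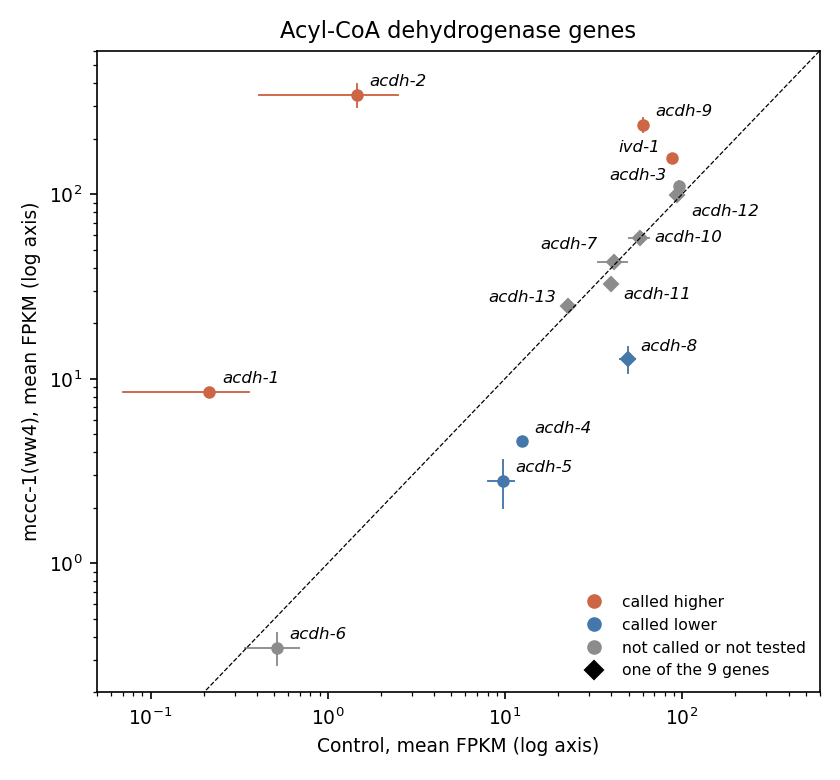
Mean FPKM in control (x) and mccc-1(ww4) (y) libraries, both on log axes, for 14 acyl-CoA dehydrogenase genes; lines run between the 2 libraries of a strain and the dashed line marks equal levels. acdh-8, acdh-4 and acdh-5 lie below the dashed line with control means of 49.6, 12.5 and 9.71 FPKM, acdh-1, acdh-2, acdh-9 and ivd-1 lie above it, and acdh-7, acdh-10, acdh-12 and acdh-13 lie close to it.

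Among the genes listed for the steps after the dehydrogenase, thiolases included, calls again ran both ways. Of 18 tested genes in the list of hydratases, hydroxyacyl-CoA dehydrogenases, thiolases and auxiliary enzymes, 2 rose, 3 fell and 13 did not pass, with a median log2 fold change of 0.02. Over all tested genes 1.06% rose and 7.3% fell. hacd-1, named for hydroxyacyl-CoA dehydrogenase and given here after its values were seen, did not pass (-1.14, SE 0.29, limma adjusted p = 0.067). It had 28.23 and 15.71 FPKM in the control and 7.88 and 10.27 FPKM in the mutant. Its limma adjusted p was 0.0473 with a robust variance model and 0.129 with quantile normalization. Its log2 fold change was -0.74 and -1.55 without control replicates 1 and 2, and -0.97 and -1.32 without mutant replicates 1 and 2. Besides kat-1, the enoyl-CoA hydratase gene ech-6 rose (0.79, SE 0.13, limma adjusted p = 0.0173), a call lost without control replicate 2 (0.07). The subunit genes of the trifunctional protein that handle long chains did not pass. ech-1.2, of the alpha subunit, had 138.38 and 120.72 FPKM in the control and 154.37 and 128.15 FPKM in the mutant (0.12, SE 0.15, limma adjusted p = 0.704). The 3 genes that fell were decr-1.2 and decr-1.3, named for dienoyl-CoA reductase, an auxiliary enzyme for unsaturated chains, and F54C8.1, known here by its sequence name only.

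decr-1.2 fell from 13.73 and 13.62 to 5.06 and 4.27 FPKM, a log2 fold change of -1.38 (SE 0.21, limma adjusted p = 0.0145). decr-1.3 fell from 6.47 and 10.86 to 1.44 and 2.82 FPKM (-1.62, SE 0.34, limma adjusted p = 0.0358), and F54C8.1 from 13.46 and 17.18 to 4.86 and 4.97 FPKM (-1.45, SE 0.22, limma adjusted p = 0.0138). decr-1.1, of the same family, had 49.80 and 49.10 FPKM in the control and 48.60 and 43.94 FPKM in the mutant and did not pass (-0.10, limma adjusted p = 0.741). With acdh-4 and acdh-5, these made 5 genes that fell among the 74 tested genes of the related lists, a share near the 7.3% of all tested genes. Of the same 74, 6 were called higher, acdh-1 and acdh-2 among them, against 1.06% of all tested genes. The lists were chosen with earlier results of these data known. The 5 genes that fell had control means of 8.66 to 15.3 FPKM. acdh-8, at -1.89, had a higher control level than each of these 5. The sperm markers fell in the same libraries, and their part in these results was not tested. Single libraries decided several of these calls. F54C8.1 was lost without control replicate 2 (limma adjusted p = 0.0546) or mutant replicate 1 (0.0568), decr-1.2 without mutant replicate 2 (0.0508), and decr-1.3 without control replicate 2 (0.13), without mutant replicate 1 (0.151) and when values were quantile normalized (0.0695).

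**Figure D4:**
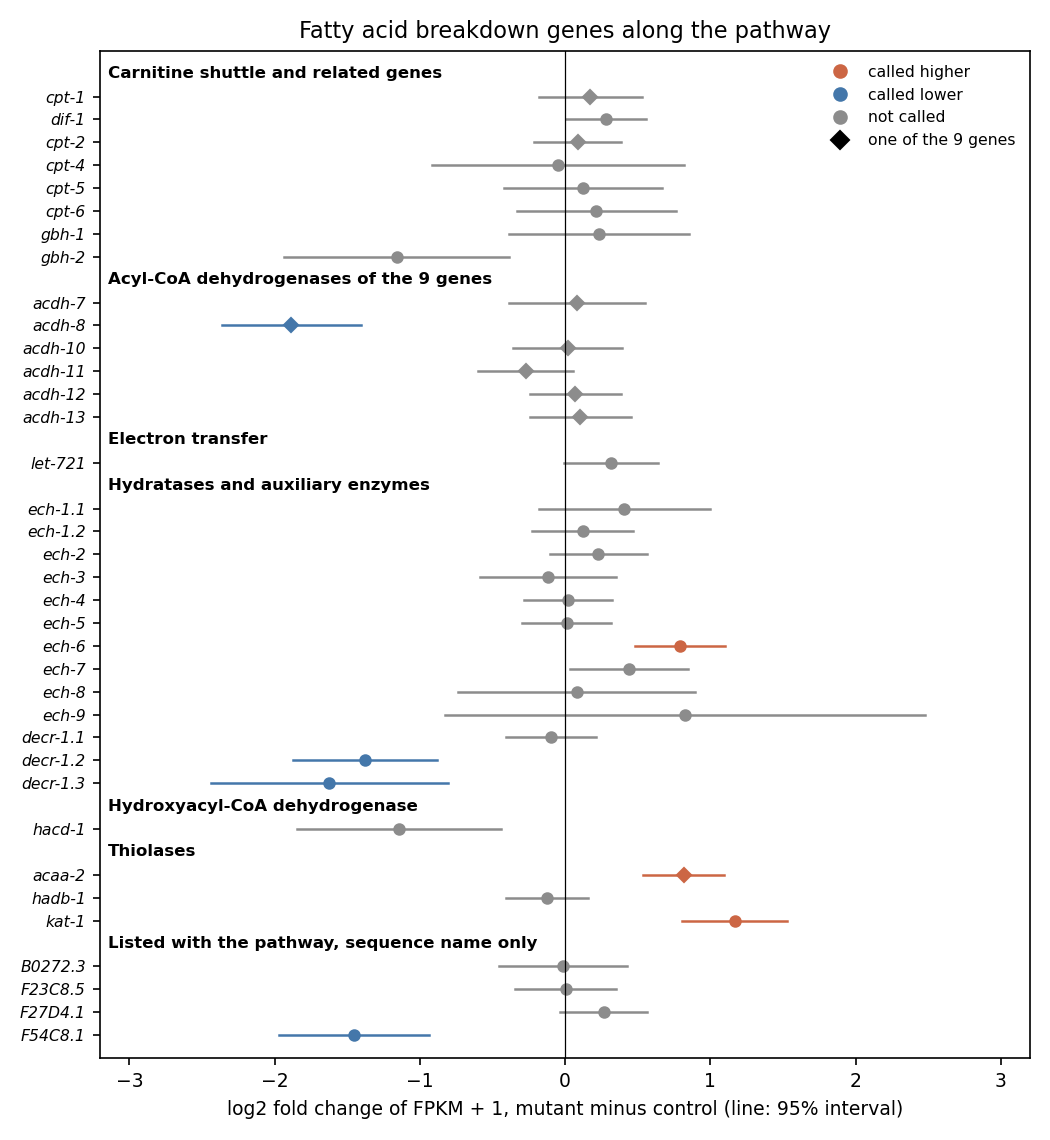
Log2 fold change of FPKM + 1, mutant minus control, with its 95% interval from limma. Diamonds are the 9 genes, and circles are other tested genes of the carnitine, electron transfer and hydratase to thiolase lists. Blocks follow the pathway, except that genes known by sequence name only are in a last block. Orange is called higher, blue called lower and grey not called. acdh-8 at -1.89 and acaa-2 at 0.82 lie on opposite sides of 0, and the intervals of cpt-1, cpt-2, acdh-7, acdh-10, acdh-11, acdh-12 and acdh-13 include 0.

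let-721, which encodes the enzyme that passes electrons from the dehydrogenases to ubiquinone, had 79.67 and 88.55 FPKM in the control and 113.42 and 97.18 FPKM in the mutant (log2 fold change 0.32, SE 0.14, limma adjusted p = 0.24). F23C8.5 and F27D4.1, listed with it, had log2 fold changes of 0.00 and 0.27, and none of the 3 passed. Nor did any of 15 peroxisomal beta-oxidation genes (median log2 fold change 0.09; 1 with an unadjusted p under 0.05). dhs-28 and daf-22, of the last peroxisomal steps, had values of -0.01 and 0.11. In the peroxisomal list acox-1.6, named here after its values were seen, lay just outside the threshold, with 6.04 and 8.91 FPKM in the control and 3.09 and 2.52 FPKM in the mutant (-1.14, SE 0.27, limma adjusted p = 0.0513). This p was 0.0248 and 0.255 without control replicates 1 and 2, and 0.142 and 0.179 without mutant replicates 1 and 2. It was 0.0435 with median-of-ratios scaling and 0.0978 with quantile normalization.

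Among 13 genes of fatty acid synthesis and desaturation, 6 had an unadjusted limma p under 0.05, against 2833 of all 13091 tested genes. Of the 13, 0 were called by limma, and the median log2 fold change was -0.05. fat-2 and elo-1, the most highly expressed, had values of -0.07 and -0.05. Without control replicate 1 this count was 6, with fat-7 and fat-3 lower and pod-2, fat-5, elo-2 and elo-6 higher, of which fat-5 passed the filter only through the mutant libraries. Leaving out mutant replicate 2 gave 1 call, elo-5, and leaving out either of the remaining libraries gave 0. Of 12 regulators of lipid metabolism none was called by limma, and 1 had an unadjusted p under 0.05. nhr-49, the gene of a nuclear receptor that promotes fatty acid oxidation in C. elegans, had 54.32 and 63.53 FPKM in the control and 69.16 and 60.00 FPKM in the mutant, so the strains overlapped (0.13, SE 0.14, limma adjusted p = 0.674). Its coactivator gene mdt-15 had a log2 fold change of 0.04.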

How the data were processed

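The deposited files give 1 FPKM value per gene and library, per the file headers. Bowtie2 and RSEM were used, per the submitters' processing notes; versions, genome build, annotation and strandedness: not given in the sources used here. RSEM divides shared reads by a model, so related and overlapping genes are uncertain. Coordinates and transcript lengths are from the Ensembl WBcel235 annotation, matched by WormBase gene identifier. No file used here holds gene or protein sequences, so none is printed.

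Genes reaching 1 FPKM in 2 or more libraries were fitted with limma 3.58.1 in R 4.3.3 (group only, mean-variance trend, 2 residual and 4.65 prior degrees of freedom) on log2(FPKM + 1), which understates changes of low genes. P-values were adjusted by Benjamini-Hochberg over all 13091 genes. Stated folds are ratios of mean FPKM; intervals are 95% and come from the fit. Depth was estimated from 292 to 308 genes per library with 1 transcript of 950 to 1050 nt and values below 0.6 FPKM, and fragments behind a value from its longest annotated transcript.

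The 9 genes, the related lists, the marker lists and the filter were chosen with earlier results of these data known. Of the related lists, named genes were those called (at most 6 per list) and the 2 highest-expressed others, with exceptions stated. 1 listed gene, kat-2, did not match the files. The fit was checked on simulated data.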

Additional observations from a re-analysis of the deposited data

How the results depend on the processing

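Across 12 alternatives acdh-8 stayed lower in all and called in 10 (log2 fold change -2.10 to -1.67, limma adjusted p 1.61e-05 to 0.106), and acaa-2 stayed higher in all and called in 9 (0.77 to 0.86, adjusted p 0.00375 to 0.107). With only a value above 0 required, or with a minimum of 0.1 FPKM, 4 genes in all and 0 of the 9 were called, with acdh-8 at -1.89 and acaa-2 at 0.82 as before. In those 2 settings 0 other acyl-CoA dehydrogenase genes and 0 of the hydratase and thiolase list were called. Fitting more low genes changed the variance estimate and the adjustment, and which of these mattered was not tested.

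When 1 library was left out, 393 to 1324 genes were called, against 1095 with all, and 726 after quantile normalization. Of the 9 genes 1 to 2 were called, of the other acyl-CoA dehydrogenases 3 to 6 (acdh-1 fell below the filter without either mutant library), of the hydratase and thiolase list 3 to 5, of the carnitine list 0 to 1, of the peroxisomal list 0 to 1 and of the synthesis list 0 to 6. Signs turned in genes that were not called: acdh-7 (-0.19 to 0.35), acdh-10 (-0.17 to 0.20) and acdh-12 (-0.038 to 0.18) when 1 library was left out, and acdh-10 also with median-of-ratios scaling (-0.019) and quantile normalization (-0.071). The cause was not tested.

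With the replicate number as a block 1803 genes were called, and the carnitine, peroxisomal and synthesis lists had 1, 1 and 5 calls; both calls among the 9 genes held. The labels do not say that the number pairs libraries, and deviations of same-numbered libraries correlated at 0.176 over genes. The peroxisomal list had 1 call with median-of-ratios scaling and with a robust variance model, and the synthesis list 1 with the latter. All 9 genes had values above 10 FPKM in every library, and the estimated fragments behind a value were fewest for acdh-8 in mutant replicate 1, at 165.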
